A study of Mus musculus with 15 samples.

Results

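The elastic fibre and microfibril genes Eln, Fbn1, Fbn2, Fbln1, Fbln2, Fbln5, Efemp2, Mfap4, Mfap5 and Emilin1 were measured in mouse fibroblasts from 5 sources. They were taken as every probe whose gene name or bracketed symbol in the array's annotation was 1 of these 10 genes, which gave 10 of 17724 named genes and 13 of 41174 probes. Fbn1, Fbln1 and Fbln5 had 2 probes each, called brighter and dimmer here by their mean intensity, and the other genes had 1. The fibroblast signal of all 13 probes was well above background on all 15 arrays by the scanner's flag, and none was saturated. Elastic fibres give skin, lung and vessels their recoil. Fibroblasts and smooth muscle cells lay down a scaffold of fibrillin microfibrils, on which tropoelastin is gathered with the help of fibulins and then cross-linked by lysyl oxidases. Microfibrils also hold latent TGF-beta complexes in the matrix, and fibroblasts of tumours are known for remodelling such matrix.

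The series title speaks of fibroblasts from tumours that do not respond to blocking VEGF, the factor that drives vessel growth. By its labels 3 sources are resistant, namely TAF-el4, TAF-tib42 and TAF-tib48, and the other 2, TAF-tib6 and NSF, are sensitive, with 3 arrays each. TAF is read from that title as tumour-associated fibroblasts, and EL4 is a mouse T-cell lymphoma line. The labels spell out none of the source names and give no strain, age, treatment or passage. On every array the fibroblast RNA carried Cy5, and a commercial pool, Stratagene's Universal Mouse Reference RNA, carried Cy3 with no dye swap. A level is therefore the log2 ratio of a source to this pool, and a difference between sources is a difference of such ratios. Nothing says that the 3 arrays of a source were separate cultures or animals. P-values for pairs of sources, and for the test over all sources, therefore reflect array-to-array spread alone, and this may be technical. Those for resistant against sensitive source means reflect the spread between sources of a response class.

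The arrays had median Cy5 intensities of 174.7 to 285.9, with local backgrounds of 52 to 56, and their number sets the precision. Log2 ratios correlated over probes at 0.96 to 0.99 between arrays of 1 source and at 0.84 to 0.95 between arrays of different sources. The headers give slide barcodes and 1 scan day. The barcodes fell into 3 consecutive runs, taken here as slide packs, an inference that no header states. Pack 1 held the NSF arrays and TAF-el4 replicates 1 and 2, pack 2 held TAF-el4 replicate 3, TAF-tib42 and TAF-tib48 replicate 1, and pack 3 held TAF-tib48 replicates 2 and 3 and TAF-tib6. All 9 fibroblast markers were above background on all 15 arrays, Fap only dimly, with a mean Cy5 intensity of 94.5. Their levels differed between sources, as given below with the other markers. Of 6 leukocyte markers, Ptprc lay far below the reference (-4.68 to -4.26), Cd14, Cd68 and Adgre1 lay below it (-1.71 to -0.66) and Itgam and Csf1r near it (-0.22 to 0.11). Of 6 epithelial markers, Krt8, Krt18 and Epcam lay far below it (-4.77 to -2.40) and Krt5, Krt14 and Cdh1 near it (-0.18 to 0.16).

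RefSeq promoter sequences, 250 bases before to 50 after a gene's start, matched 6 of the 10 genes in build GRCm38.p6, namely Fbn1, Fbln1, Fbln2, Fbln5, Efemp2 and Emilin1. Shown are the promoters of Emilin1 and Fbln2, whose 3 resistant source means were all below their 2 sensitive ones, and of Fbn1, which was lower in TAF-el4 than in the other 4 sources. All have a single listed start. Capitals mark GC boxes (GGGCGG) and CCAAT boxes (CCAAT) on either strand. The windows lie at chr5:30913536-30913835 on the plus strand for Emilin1, chr6:91212514-91212813 on the plus strand for Fbln2, and chr2:125506389-125506688 on the minus strand for Fbn1.
Emilin1: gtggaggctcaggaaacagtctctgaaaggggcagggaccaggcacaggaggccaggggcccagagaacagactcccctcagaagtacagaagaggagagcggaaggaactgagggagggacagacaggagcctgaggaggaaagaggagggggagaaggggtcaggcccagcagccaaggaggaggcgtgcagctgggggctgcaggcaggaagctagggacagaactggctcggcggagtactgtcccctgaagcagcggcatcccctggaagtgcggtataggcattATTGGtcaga
Fbln2: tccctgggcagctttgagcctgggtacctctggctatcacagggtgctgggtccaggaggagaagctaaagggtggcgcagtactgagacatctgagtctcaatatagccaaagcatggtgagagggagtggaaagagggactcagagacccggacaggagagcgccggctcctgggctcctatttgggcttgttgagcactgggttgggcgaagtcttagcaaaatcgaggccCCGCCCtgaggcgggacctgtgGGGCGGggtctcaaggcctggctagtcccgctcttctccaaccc
Fbn1: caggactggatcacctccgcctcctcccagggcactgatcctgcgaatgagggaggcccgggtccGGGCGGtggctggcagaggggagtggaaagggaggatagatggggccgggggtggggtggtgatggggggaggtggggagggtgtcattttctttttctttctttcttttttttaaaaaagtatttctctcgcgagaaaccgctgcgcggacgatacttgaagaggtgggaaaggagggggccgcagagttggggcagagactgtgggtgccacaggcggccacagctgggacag
Emilin1 holds 1 CCAAT box and no GC box, Fbln2 holds 2 GC boxes and Fbn1 holds 1. Of 32851 promoter windows of this length, 35.7% hold a GC box and 37.4% a CCAAT box. None of the 3 windows holds TATAAA or the AP-1 letters TGANTCA, which 13.6% and 7.81% of windows hold.

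The first comparison set the 3 resistant against the 2 sensitive sources, with the source as the unit. Fbn2 and Emilin1 were the members that stood furthest apart. All 9 resistant arrays lay below all 6 sensitive arrays for both, and for no other member probe. Over all probes tested, 2.36% lay apart in this direction. The mean level of each resistant source was below both sensitive means for 4 of 13 member probes (Fbn2, Fbln2, the brighter Fbln5 probe and Emilin1) and above both for 0, against 12.8% and 14.3% of all probes. In the limma fit of source means, Emilin1 averaged 0.06 in resistant and 0.64 in sensitive sources, a difference of -0.58 (SE 0.132, adjusted p = 0.333). Fbn2 averaged -0.02 in resistant and 0.95 in sensitive sources, a difference of -0.97 (SE 0.268, adjusted p = 0.387).

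No member probe was called at an adjusted p under 0.05 between resistant and sensitive sources (0 of 13), and 0.00260% of all 38522 probes tested were. At an unadjusted p under 0.05, 4 of 13 member probes and 3666 of all probes passed. The median difference of the members was -0.28, against 0 over all probes. With the 15 arrays as units and the source as a random block in limma, 4 of 13 member probes were called lower in resistant sources, beside 4.73% of all probes called in that fit: Fbn2, Emilin1 and the brighter probes of Fbln1 and Fbln5. That fit uses 1 within-source correlation, 0.401, for all probes. Where a probe's arrays agree more closely than this correlation assumes, the fit treats them as more independent than they are. For Fbn2 the SD within sources was 0.021 to 0.131, while its sensitive means were 0.485 and 1.419. Its SE was 0.156 there, beside 0.268 on source means, so its p-value may be too small. With the replicate number as a further block, 3 were called beside 3.91%. With the slide pack added instead, an alternative chosen after seeing the data (correlation 0.339), 2 were called beside 4.08%, Fbn2 (-0.97, adjusted p = 0.00179) and Emilin1 (-0.48, adjusted p = 0.0218).

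**Figure D1:**
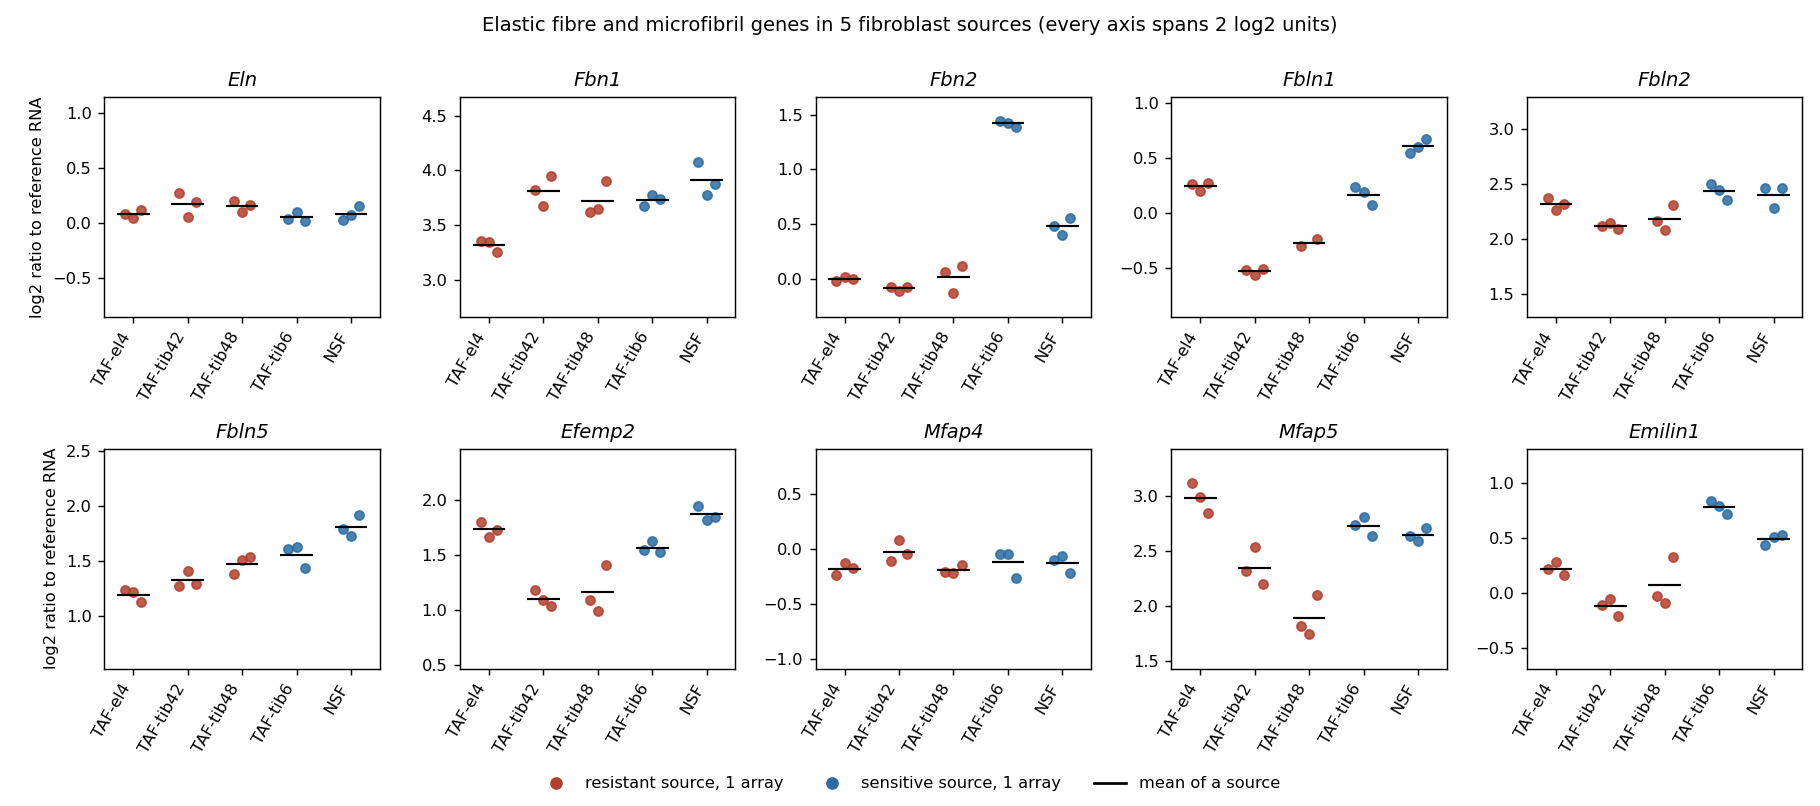
Log2 ratio to the reference RNA on each array (points) and the mean of each source (bars) for the 10 genes, the brighter probe where a gene has 2, with resistant sources in red and sensitive sources in blue and axes of equal span. Fbn2 sits near 0 in the 3 resistant sources and near 1.42 in TAF-tib6, Emilin1 is lower on all resistant arrays, and the source means of Eln and Mfap4 span 1.09-fold and 1.13-fold.

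The RNA of Eln, whose product elastin forms the core of the fibre, was near the level of the reference in every source. Eln lay between 0.05 and 0.12 in TAF-el4, 0.06 and 0.27 in TAF-tib42, 0.10 and 0.20 in TAF-tib48, 0.02 and 0.10 in TAF-tib6, and 0.03 and 0.16 in NSF. Its highest source mean was 1.09-fold its lowest. None of the 10 pairs of sources was called, the lowest adjusted p being 0.108, and the moderated F test over the 5 sources gave an adjusted p of 0.236. The ranges of most sources overlapped, and the differences between sources were of the size of the spread within them.

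The fibrillins, which polymerise into the microfibril, differed between sources in separate ways. Fbn2 encodes fibrillin-2, the fibrillin best known from developing tissue. In resistant sources it measured -0.02, 0.03 and 0.00 in TAF-el4, -0.07, -0.11 and -0.07 in TAF-tib42, and 0.07, -0.12 and 0.12 in TAF-tib48. In sensitive sources it measured 1.44, 1.43 and 1.39 in TAF-tib6 and 0.49, 0.41 and 0.56 in NSF. The resistant arrays all lay between -0.12 and 0.12, with TAF-tib42 below TAF-el4, NSF lay above them, and TAF-tib6 above NSF, with no overlap between these.

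Against TAF-tib6, Fbn2 was lower by 2.67-fold in TAF-el4, 2.83-fold in TAF-tib42 and 2.63-fold in TAF-tib48, with log2 differences of -1.42, -1.5 and -1.40 (SE 0.0549 each) and adjusted p-values of 3.99e-12, 2.77e-13 and 1.93e-12. Against NSF the differences were smaller, at -0.48, -0.57 and -0.46 (adjusted p = 2.97e-06, 2.78e-07 and 3.5e-06), and over 1.5 times larger with the scanner's ratios, at -0.76, -0.88 and -0.76. Between the sensitive sources, Fbn2 was 1.91-fold higher in TAF-tib6 than in NSF (log2 difference 0.93, adjusted p = 1.03e-09). No pair of resistant sources was called, with adjusted p-values of 0.254 to 0.85. All 7 of these calls held under every alternative computed, the highest adjusted p being 0.0469 for TAF-tib48 against NSF with the slide pack as a block.

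Fbn1 encodes fibrillin-1, the main fibrillin of adult microfibrils and the gene mutated in human Marfan syndrome. Its brighter probe measured 3.35, 3.35 and 3.25 in TAF-el4, 3.82, 3.68 and 3.95 in TAF-tib42, and 3.62, 3.65 and 3.91 in TAF-tib48. In sensitive sources it measured 3.68, 3.78 and 3.74 in TAF-tib6 and 4.08, 3.78 and 3.88 in NSF. TAF-el4 lay below every other array, while the other 4 sources overlapped as a group.

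Fbn1 was lower in TAF-el4 than in each of the other 4 sources with both probes. The brighter probe differed by -0.50 from TAF-tib42, -0.41 from TAF-tib48, -0.41 from TAF-tib6 and -0.59 from NSF (adjusted p = 0.00013, 0.00107, 0.000948 and 2.4e-05). The dimmer probe differed by -0.70, -0.63, -0.41 and -0.56 in the same order. Among the other sources only the dimmer probe was called once, higher in TAF-tib42 than in TAF-tib6 by 0.29 (adjusted p = 0.0188), where the brighter gave 0.08 (adjusted p = 0.51). With the slide pack as a block, Fbn1 against TAF-tib6 was not called in TAF-el4 (adjusted p = 0.347 brighter, 0.0862 dimmer) nor in TAF-tib42 (dimmer, adjusted p = 0.501), and the brighter probe in TAF-el4 against TAF-tib48 was not either (adjusted p = 0.132). TAF-el4 and TAF-tib6 shared no pack. Within pack 1, where TAF-el4 and NSF met, the differences were -0.56 and -0.52 (adjusted p = 0.000978 and 0.00316).

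The fibulins bind elastin, fibrillins and lysyl oxidases. Fbln1 encodes fibulin-1, found with elastic fibres and basement membranes. Its brighter probe measured 0.27, 0.21 and 0.27 in TAF-el4, -0.51, -0.56 and -0.51 in TAF-tib42, and -0.30 and -0.23 in TAF-tib48, where replicate 3 was left out of the fit for an outlier flag. In sensitive sources it measured 0.24, 0.19 and 0.08 in TAF-tib6 and 0.55, 0.60 and 0.67 in NSF. TAF-tib42 was the lowest source and NSF the highest, neither overlapping any other, and TAF-el4 overlapped TAF-tib6.

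Against NSF, the brighter Fbln1 probe was lower in all 3 resistant sources, with log2 differences of -0.36 in TAF-el4, -1.14 in TAF-tib42 and -0.88 in TAF-tib48 (adjusted p = 2.85e-05, 8.67e-12 and 1.16e-09). The dimmer probe gave -0.36, -1.26 and -0.59 (adjusted p = 0.0104, 7.92e-09 and 0.000112), and the last of these missed the threshold with the slide pack as a block (adjusted p = 0.0521). Against TAF-tib6, both probes were lower in TAF-tib42 (-0.70 and -0.68), and neither was called in TAF-el4. The dimmer probe in TAF-tib42 also missed it under that block (adjusted p = 0.0561). The probes parted for TAF-tib48 against TAF-tib6, where the brighter gave -0.44 (adjusted p = 9.59e-06) and the dimmer -0.01 (adjusted p = 0.951). TAF-tib48 replicate 3, which the brighter probe lacks, read 0.10 on the dimmer, against -0.22 and -0.29 on the other arrays of that source. In TAF-tib6 the dimmer probe read -0.09, -0.18 and -0.11. On the arrays that both probes cover, TAF-tib48 thus also lay nearer to TAF-tib6 with the dimmer probe than with the brighter. Why the probes parted was not tested. Fbln1 was also lower in TAF-tib6 than in NSF, with differences of -0.44 and -0.58 (the dimmer not with the block, adjusted p = 0.182), and higher in TAF-el4 than in TAF-tib42, by 0.78 and 0.90. From Cy5 alone, without the reference channel, the brighter probe was no longer called in TAF-el4 against NSF (-0.07, adjusted p = 0.871) or in TAF-tib6 against NSF (-0.06, adjusted p = 0.838).

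Fbln2 encodes fibulin-2, a ligand of fibrillin-1 and elastin that remodelling tissue makes in quantity. Its Cy5 intensity was high throughout, between 30250 and 56870. It lay between 2.27 and 2.38 in TAF-el4, 2.09 and 2.15 in TAF-tib42, 2.08 and 2.31 in TAF-tib48, 2.36 and 2.50 in TAF-tib6, and 2.29 and 2.46 in NSF. The source means spanned 1.24-fold. Fbln2 was lower in TAF-tib42 than in TAF-tib6 (-0.32, adjusted p = 0.000647) and NSF (-0.28, adjusted p = 0.00167), and lower in TAF-tib48 than in TAF-tib6 (-0.25, adjusted p = 0.00493) and NSF (-0.22, adjusted p = 0.012), though its TAF-tib48 and NSF arrays overlapped. Scaling the log ratios between arrays left 1 of the 4, TAF-tib42 against TAF-tib6 (-0.17, adjusted p = 0.0499), and the slide pack as a block left another, TAF-tib48 against TAF-tib6 (-0.24, adjusted p = 0.0246; within pack 3 alone, adjusted p = 0.0598). From Cy5 alone the TAF-tib48 difference from NSF turned to 0.03 (adjusted p = 0.82).

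Fbln5 encodes fibulin-5, which tethers tropoelastin to microfibrils and cells. Its brighter probe measured 1.24, 1.22 and 1.13 in TAF-el4, 1.28, 1.41 and 1.29 in TAF-tib42, and 1.38, 1.51 and 1.54 in TAF-tib48. In sensitive sources it measured 1.61, 1.63 and 1.44 in TAF-tib6 and 1.79, 1.73 and 1.92 in NSF. NSF lay above all other arrays, and the other sources formed a graded series whose neighbours were not called. Against NSF it was lower in all 3 resistant sources, at -0.62 in TAF-el4, -0.49 in TAF-tib42 and -0.34 in TAF-tib48 (adjusted p = 7.68e-07, 9.61e-06 and 0.000519), and in TAF-tib6, at -0.25 (adjusted p = 0.0119). Against TAF-tib6 it was lower in TAF-el4 (-0.36, adjusted p = 0.000278) and TAF-tib42 (-0.23, adjusted p = 0.00975). Modelling the slide pack ended both calls against TAF-tib6 (-0.29 and -0.09, adjusted p = 0.222 and 0.696). It also ended those of TAF-tib48 and TAF-tib6 against NSF (-0.33 and -0.30, adjusted p = 0.14 and 0.429). The SE of these last differences rose from 0.0625 to 0.122 and 0.139. The dimmer probe, with a Cy5 intensity of 79.21 to 132.6 near background, was called in none of the 10 pairs.

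Efemp2 encodes fibulin-4, without which mice form no intact elastic fibres. It measured 1.80, 1.67 and 1.73 in TAF-el4, 1.19, 1.09 and 1.04 in TAF-tib42, and 1.09, 0.99 and 1.41 in TAF-tib48. On the sensitive side it measured 1.55, 1.63 and 1.52 in TAF-tib6 and 1.95, 1.82 and 1.85 in NSF. TAF-tib42 and TAF-tib48 lay below all arrays of the other 3 sources, so the divide ran through the resistant sources. Efemp2 was lower in TAF-tib42 and TAF-tib48 than in TAF-tib6 (-0.46 and -0.40, adjusted p = 0.000211 and 0.000827) and than in NSF (-0.77 and -0.71, adjusted p = 5.73e-07 and 1.53e-06). It was higher in TAF-el4 than in TAF-tib42 and TAF-tib48, by 0.63 and 0.57 (adjusted p = 5.91e-06 and 2.41e-05), and not called in TAF-el4 against either sensitive source. Modelling the slide pack ended the call of TAF-tib42 against TAF-tib6 (-0.35, adjusted p = 0.163), while TAF-tib48 against TAF-tib6 was called within pack 3 (-0.36, adjusted p = 0.0418).

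**Figure D2:**
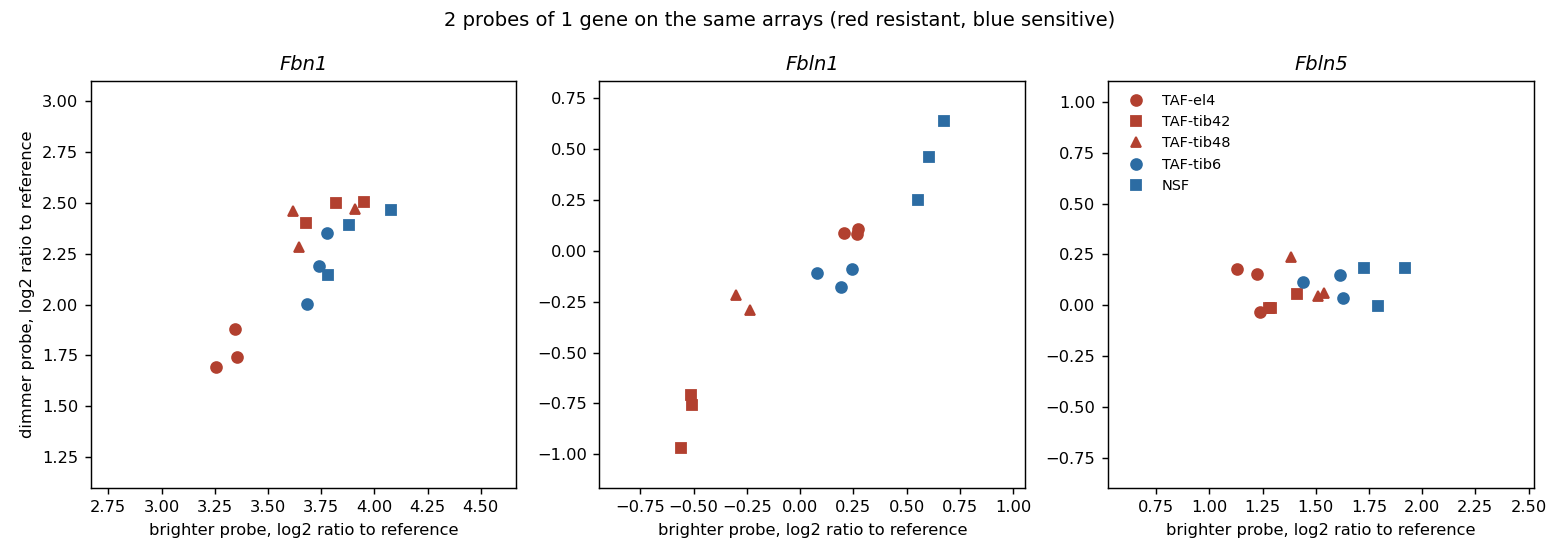
Dimmer against brighter probe of Fbn1, Fbln1 and Fbln5, each point 1 array on log2 ratio axes of equal span, with resistant sources in red and sensitive sources in blue. The probes run together for Fbn1 (r = 0.854 over 15 arrays) and Fbln1 (r = 0.955 over 14), and the dimmer Fbln5 probe stays flat (r = 0.145 over 15), all points sharing the reference RNA and 3 slide packs.

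The microfibril-associated proteins decorate the fibrillin scaffold. Mfap5 encodes MAGP-2, which binds fibrillins and growth factors of the TGF-beta family. It measured 3.12, 2.99 and 2.85 in TAF-el4, 2.32, 2.54 and 2.20 in TAF-tib42, and 1.82, 1.75 and 2.10 in TAF-tib48. On the sensitive side it measured 2.74, 2.81 and 2.64 in TAF-tib6 and 2.64, 2.59 and 2.71 in NSF. The highest and the lowest source were thus both resistant, TAF-el4 above all other arrays and TAF-tib48 below them.

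Mfap5 was 2.14-fold apart between these sources, with a difference of 1.096 for TAF-el4 against TAF-tib48 (SE 0.0902, adjusted p = 3.68e-08). Against TAF-tib6 it was lower in TAF-tib42 (-0.38, adjusted p = 0.00414) and TAF-tib48 (-0.84, adjusted p = 1.15e-06) and differed by 0.26 in TAF-el4 (adjusted p = 0.0531). Against NSF it was higher in TAF-el4 (0.34, adjusted p = 0.0113) and lower in TAF-tib42 (-0.30, adjusted p = 0.0223) and TAF-tib48 (-0.76, adjusted p = 3.78e-06). The TAF-tib42 calls against TAF-tib6 and NSF did not hold when the slide pack was modelled (-0.275 and -0.093, adjusted p = 0.338 and 0.811). Nor did that of TAF-tib48 against NSF (-0.62, adjusted p = 0.0524). Within pack 3 the TAF-tib48 difference from TAF-tib6 was -0.81 (adjusted p = 0.000511), and within pack 1 the TAF-el4 difference from NSF was 0.41 (adjusted p = 9e-04). The call of TAF-el4 against NSF held in 24 of 31 alternatives, and ended with median centring (adjusted p = 0.0609), the scanner's ratios (0.105), the authors' deposited table (0.104), Cy5 alone (0.127), and without replicate 1 (0.211), replicate 2 (0.0617) or TAF-el4 replicate 1 alone (0.0741). Mfap4, whose product binds elastin and collagen in skin, was dim, with a Cy5 intensity of 90.21 to 139.7. Its source means lay between -0.19 and -0.02, and no pair was called (lowest adjusted p = 0.0805).

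Emilin1 encodes EMILIN-1, a glycoprotein at the interface of elastin and microfibrils that restrains TGF-beta maturation in mice. In resistant sources it measured 0.22, 0.28 and 0.16 in TAF-el4, -0.11, -0.05 and -0.21 in TAF-tib42, and -0.03, -0.09 and 0.32 in TAF-tib48. On the sensitive side it measured 0.83, 0.79 and 0.71 in TAF-tib6 and 0.44, 0.51 and 0.52 in NSF. Each resistant array lay below every sensitive one, and TAF-tib48 replicate 3 came nearest to NSF. This array also read higher than the other TAF-tib48 arrays for Efemp2, Mfap5 and the dimmer Fbln1 probe.

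Against TAF-tib6, Emilin1 was lower by 1.47-fold in TAF-el4, 1.87-fold in TAF-tib42 and 1.63-fold in TAF-tib48, as log2 differences of -0.56, -0.90 and -0.71 (SE 0.0776 each, adjusted p = 3e-05, 5.85e-08 and 1.49e-06). Against NSF the differences were -0.27, -0.61 and -0.42 (adjusted p = 0.0203, 8.38e-06 and 0.000486). Emilin1 was also higher in TAF-tib6 than in NSF (0.29, adjusted p = 0.0206) and in TAF-el4 than in TAF-tib42 (0.35, adjusted p = 0.00265). TAF-tib42 kept its calls against both sensitive sources under every alternative, and TAF-tib48 kept the one against TAF-tib6. The other calls ended with the slide pack as a block: TAF-el4 against TAF-tib6 (-0.47, adjusted p = 0.11), TAF-el4 against NSF (-0.24, adjusted p = 0.0835), TAF-tib48 against NSF (-0.43, adjusted p = 0.142), TAF-tib6 against NSF (0.23, adjusted p = 0.7) and TAF-el4 against TAF-tib42 (0.29, adjusted p = 0.102). The call of TAF-el4 against NSF held in 21 of 31 alternatives and that of TAF-tib6 against NSF in 20 of 30. Within pack 1 the TAF-el4 difference from NSF was -0.24 (adjusted p = 0.00734), and within pack 3 the TAF-tib48 difference from TAF-tib6 was -0.66 (adjusted p = 0.00224).

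In the tests of single pairs, member probes called between a resistant and a sensitive source were mostly lower in the resistant one. These tests rest on the spread between arrays, and on source means 0 of 13 member probes were called. Against TAF-tib6, TAF-el4 had 5 of 13 probes called, 0 higher and 5 lower, beside 20.6% of all probes tested (11.6% higher, 8.96% lower). TAF-tib42 had 9 called, 1 higher and 8 lower, beside 24.7% (12.1% higher, 12.6% lower). TAF-tib48 had 6 called, 0 higher and 6 lower, beside 24.8% (12.3% higher, 12.5% lower).

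Against NSF, 8 of 13 member probes were called in each resistant source. In TAF-el4, 1 was higher and 7 lower, beside 17.4% of all probes (8.90% higher, 8.54% lower). All 8 were lower in TAF-tib42, beside 24.2% (11.2% higher, 13.0% lower), and all 8 in TAF-tib48, beside 26.5% (12.4% higher, 14.1% lower). Fbn2 and Emilin1 were called lower in all 3 resistant sources against TAF-tib6 (2 of 13 probes, 3.38% of all), and 0 were called higher in all 3 (3.02% of all). Fbn2, both Fbln1 probes, the brighter Fbln5 probe and Emilin1 were called lower in all 3 against NSF (5 of 13, 3.65% of all), and 0 higher (2.09% of all). The 3 comparisons share the arrays of the sensitive source. Against NSF, the sensitive TAF-tib6 was also called lower for the brighter and dimmer Fbln1 probes (-0.44 and -0.58) and the brighter Fbln5 probe (-0.25). Lower levels of these probes than in NSF were thus not particular to resistant sources. The median difference of the members was between -0.34 and -0.06 in these 6 comparisons, while that of all probes lay within 0.01 of 0.

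Within each response class the sources differed too. TAF-tib6 against NSF had 6 of 13 member probes called, 2 higher (Fbn2 and Emilin1) and 4 lower, beside 11.0% of all probes (4.41% higher, 6.61% lower). TAF-el4 had 8 called against TAF-tib42, 6 higher and 2 lower, beside 23.1% (13.2% higher, 9.86% lower), and 6 against TAF-tib48, 3 higher and 3 lower, beside 23.6% (13.5% higher, 10.1% lower). TAF-tib42 had 3 called against TAF-tib48, 1 higher and 2 lower, beside 14.2% (6.46% higher, 7.70% lower). Over the 5 sources, the moderated F test called 10 of 13 member probes beside 43.4% of all, the exceptions being Eln, Mfap4 and the dimmer Fbln5 probe. In all, 67 of 130 pair tests of member probes were called, beside 11.0% to 26.5% of all probes in the single pairs. Fbn1, Fbln1 and Fbln5 enter this count with 2 probes each. Cell composition was not measured, and in bulk RNA fewer cells of a type and less RNA per cell cannot be told apart.

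**Figure D3:**
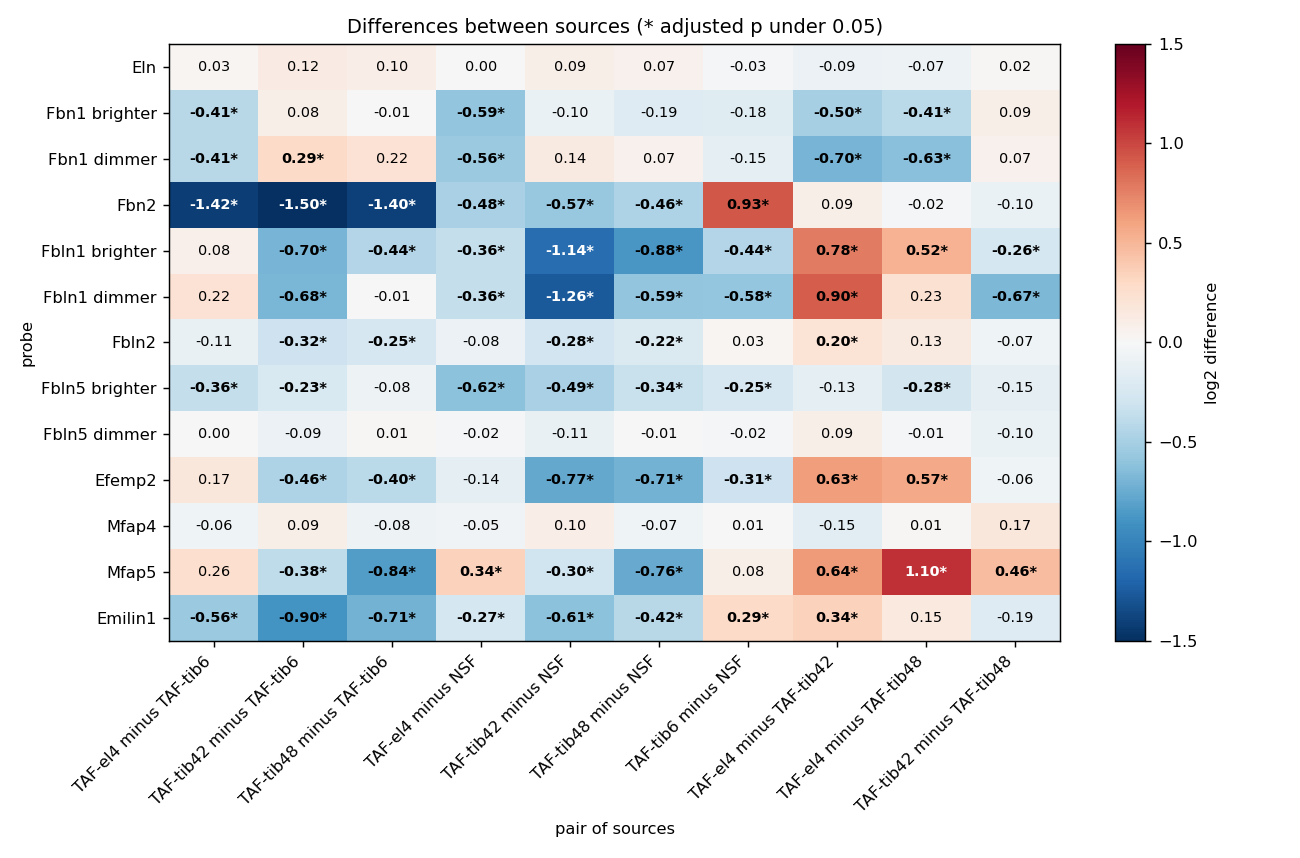
Log2 differences between sources for the 13 member probes (rows) in the 10 pairs of sources (columns), first source minus second, with an asterisk at an adjusted p under 0.05 in limma. Columns of resistant minus sensitive sources are mostly blue (lower), with the deepest values for Fbn2 against TAF-tib6.

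The slide pack could not be separated from the source in every comparison, since TAF-tib42 shared no pack with a sensitive source, TAF-el4 none with TAF-tib6, and TAF-tib48 none with NSF. In a fit with the pack as a block, 27 of the 67 calls ended. Its SEs are larger, so a call can end with little change in value, while other calls ended as the value fell. Emilin1 in TAF-tib48 against NSF was -0.43 (SE 0.16) with the block and -0.42 (SE 0.0776) without. Mfap5 in TAF-tib42 against NSF was -0.09 with the block and -0.30 without. The brighter Fbln5 probe in TAF-tib42 against TAF-tib6 was -0.09 with it and -0.23 without. In TAF-el4 against TAF-tib6, 1 of 13 member probes stayed called (Fbn2), beside 5.45% of all probes in that fit. In TAF-tib42 against TAF-tib6 it was 3 (Fbn2, Emilin1 and the brighter Fbln1 probe) beside 9.73%, and in TAF-tib48 against NSF 3 (Fbn2, Efemp2 and the brighter Fbln1 probe) beside 6.42%. Where a resistant and a sensitive source shared a pack, 8 of 13 member probes were called within pack 1 for TAF-el4 against NSF (16.4% of all probes), as many as over all arrays, and 5 within pack 3 for TAF-tib48 against TAF-tib6 (16.5% of all), beside 6 over all arrays.

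**Figure D4:**
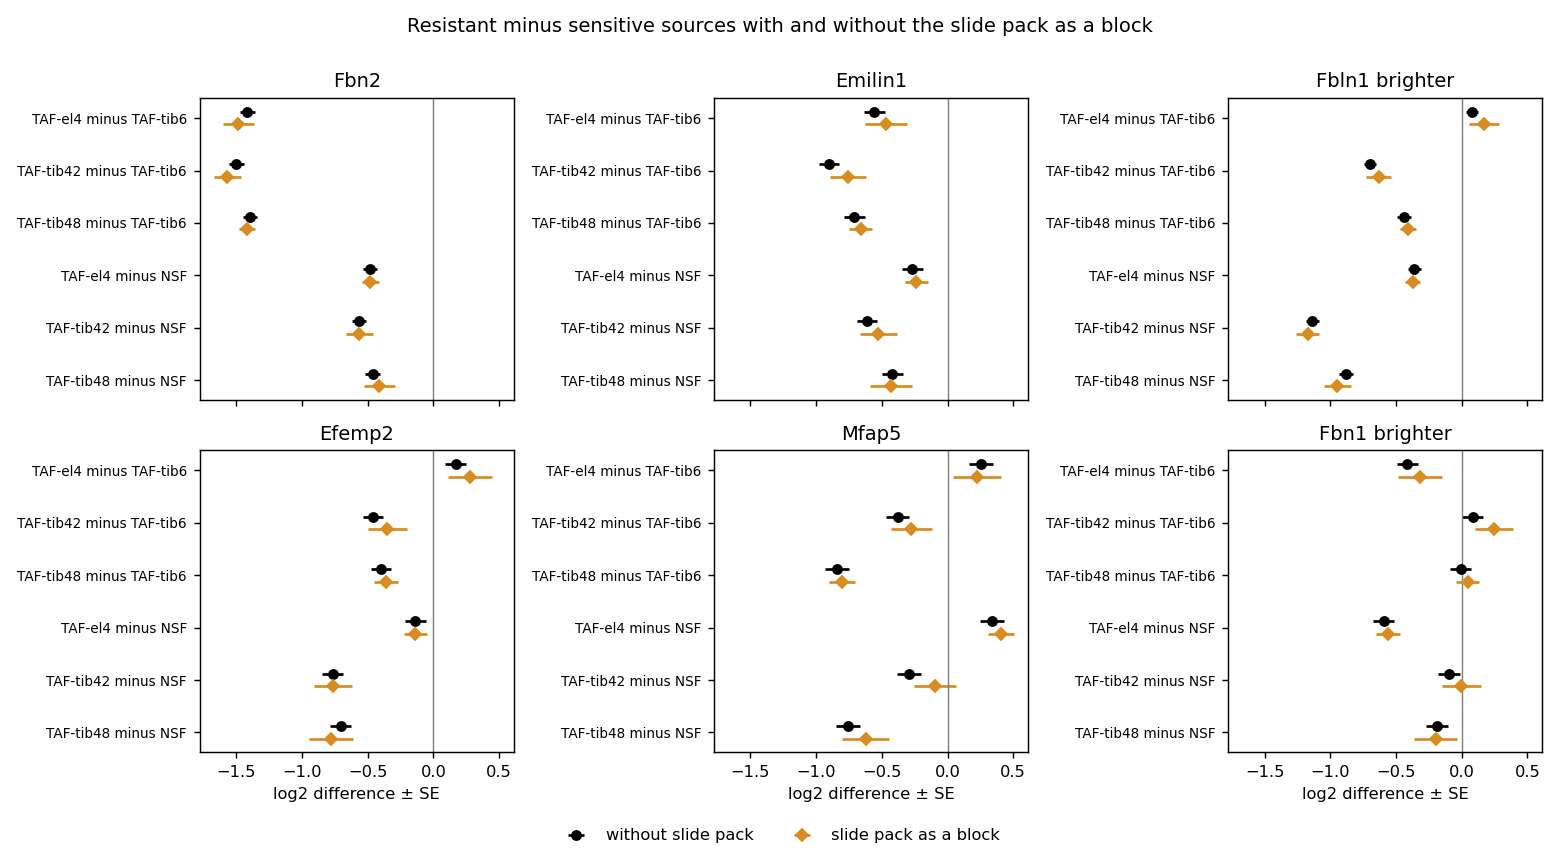
Log2 difference ± SE of resistant minus sensitive sources for 6 member probes, without the slide pack (black circles) and with it as a block (orange diamonds). Fbn2 keeps differences of -1.49, -1.57 and -1.42 from TAF-tib6.

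Other genes of the pathway were read from 3 lists, each gene by its brightest probe. Among 17 measured of 23 paralogues and microfibril partners, the calls went both ways against TAF-tib6: 2 higher and 4 lower in TAF-el4, 5 and 5 in TAF-tib42, and 4 and 4 in TAF-tib48. Against NSF, 1 was higher and 5 lower in TAF-el4, 3 and 7 in TAF-tib42, and 4 and 4 in TAF-tib48. With the slide pack as a block, the calls of this list against TAF-tib6 numbered 0 of 6 in TAF-el4, 4 of 10 in TAF-tib42 and 7 of 8 in TAF-tib48, where 5.45%, 9.73% and 21.6% of all probes were called. Against NSF they numbered 3 of 6, 5 of 10 and 2 of 8 in the same sources, where 14.7%, 7.73% and 6.42% were called. The shares of all probes called without the block are those given for the members (20.6%, 24.7% and 24.8% against TAF-tib6, 17.4%, 24.2% and 26.5% against NSF). The median difference of this list lay between -0.06 and 0.05 in these comparisons, beside medians of all probes within 0.01 of 0.

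Mfap2, which encodes MAGP-1, the paralogue of the Mfap5 product, had mean levels of 1.36 in TAF-el4, 0.63 in TAF-tib42 and 0.63 in TAF-tib48, against 1.91 in TAF-tib6 and 1.91 in NSF. It was lower in every resistant source, at -0.55, -1.28 and -1.28 against TAF-tib6 (adjusted p = 7.72e-06, 6.79e-11 and 9.48e-11). Under the slide pack block, the TAF-el4 difference from TAF-tib6 missed the threshold (adjusted p = 0.0561), and the others did not. Ltbp2, a latent TGF-beta binding protein that attaches to microfibrils, split the resistant sources. Its mean levels were 1.88 in TAF-el4, -0.24 in TAF-tib42 and 0.26 in TAF-tib48, against 1.26 in TAF-tib6 and 1.73 in NSF. Efemp1, which encodes fibulin-3, had mean levels of 1.29, 1.57 and 2.39 in TAF-el4, TAF-tib42 and TAF-tib48, against 1.22 in TAF-tib6 and 2.47 in NSF. Its TAF-tib48 difference from TAF-tib6 was 1.17 (adjusted p = 2.1e-08), while its TAF-el4 difference from NSF was -1.19 (adjusted p = 2.76e-08).

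All 6 genes of elastin cross-linking were measured. Lox, the lysyl oxidase that cross-links elastin and collagen, had mean levels of 2.92 in TAF-el4, 2.61 in TAF-tib42 and 1.60 in TAF-tib48, against 2.91 in TAF-tib6 and 2.71 in NSF. It was lower in TAF-tib48, at -1.31 against TAF-tib6 and -1.12 against NSF (adjusted p = 2.32e-10 and 1.39e-09). The paralogue Loxl3 was higher than in NSF in TAF-el4, TAF-tib42 and TAF-tib48, by 1.09, 0.58 and 0.44, and the last of these was not called with the slide pack as a block (adjusted p = 0.0937). Loxl3 was also higher in the sensitive TAF-tib6 than in NSF, by 0.395 (adjusted p = 0.000363, with the block 0.349). Its mean level was 1.23 in TAF-tib6, beside 1.27 in TAF-tib48. Against TAF-tib6, this list had 1 higher and 1 lower in TAF-el4, 2 and 3 in TAF-tib42, and 1 and 4 in TAF-tib48, with median differences of -0.26 to 0.00. Against NSF the counts were 1 and 2 in TAF-el4, 1 and 2 in TAF-tib42, and 1 and 3 in TAF-tib48, with median differences of -0.36 to -0.01. The slide pack block left 2 of 2, 2 of 5 and 5 of 5 of these calls against TAF-tib6 in TAF-el4, TAF-tib42 and TAF-tib48, and 3 of 3, 1 of 3 and 3 of 4 against NSF, the shares over all probes being as for the first list.

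Of 9 enzymes that can degrade elastin, all measured, 2 were called lower in all 6 resistant against sensitive comparisons. Of all probes, 3.38% were called lower in all 3 resistant sources against TAF-tib6 and 3.65% against NSF. The share for all 6 was not computed, and these comparisons share arrays. Mmp2, a gelatinase that also cleaves elastin, had mean levels of 0.19 in TAF-el4, 0.49 in TAF-tib42 and -0.39 in TAF-tib48, against 0.94 in TAF-tib6 and 0.86 in NSF. Ctsl, the lysosomal cathepsin L, had -0.97, -1.12 and -0.82 in the same resistant sources, against -0.31 in TAF-tib6 and -0.45 in NSF. Their differences from TAF-tib6 were -0.75, -0.45 and -1.33 for Mmp2 and -0.65, -0.81 and -0.51 for Ctsl. Against NSF they were -0.67, -0.37 and -1.25 for Mmp2 and -0.51, -0.67 and -0.37 for Ctsl. Modelling the slide pack ended the calls of Mmp2 in TAF-el4 and TAF-tib42 against TAF-tib6 (-0.47 and -0.20, adjusted p = 0.14 and 0.487). It also ended that of Mmp2 in TAF-tib42 against NSF (-0.42, adjusted p = 0.105). Those of Ctsl in TAF-tib42 and TAF-tib48 against NSF ended too (-0.60 and -0.20, adjusted p = 0.0815 and 0.691). The list's counts were 0 higher and 3 lower, 1 and 4, and 1 and 2 against TAF-tib6, and 0 and 2, 1 and 4, and 0 and 3 against NSF, in the order TAF-el4, TAF-tib42, TAF-tib48. Of these the block left 1 of 3, 1 of 5 and 3 of 3 against TAF-tib6, and 2 of 2, 0 of 5 and 1 of 3 against NSF, beside the same shares over all probes. Its median differences lay between -0.11 and 0.015.

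**Figure D5:**
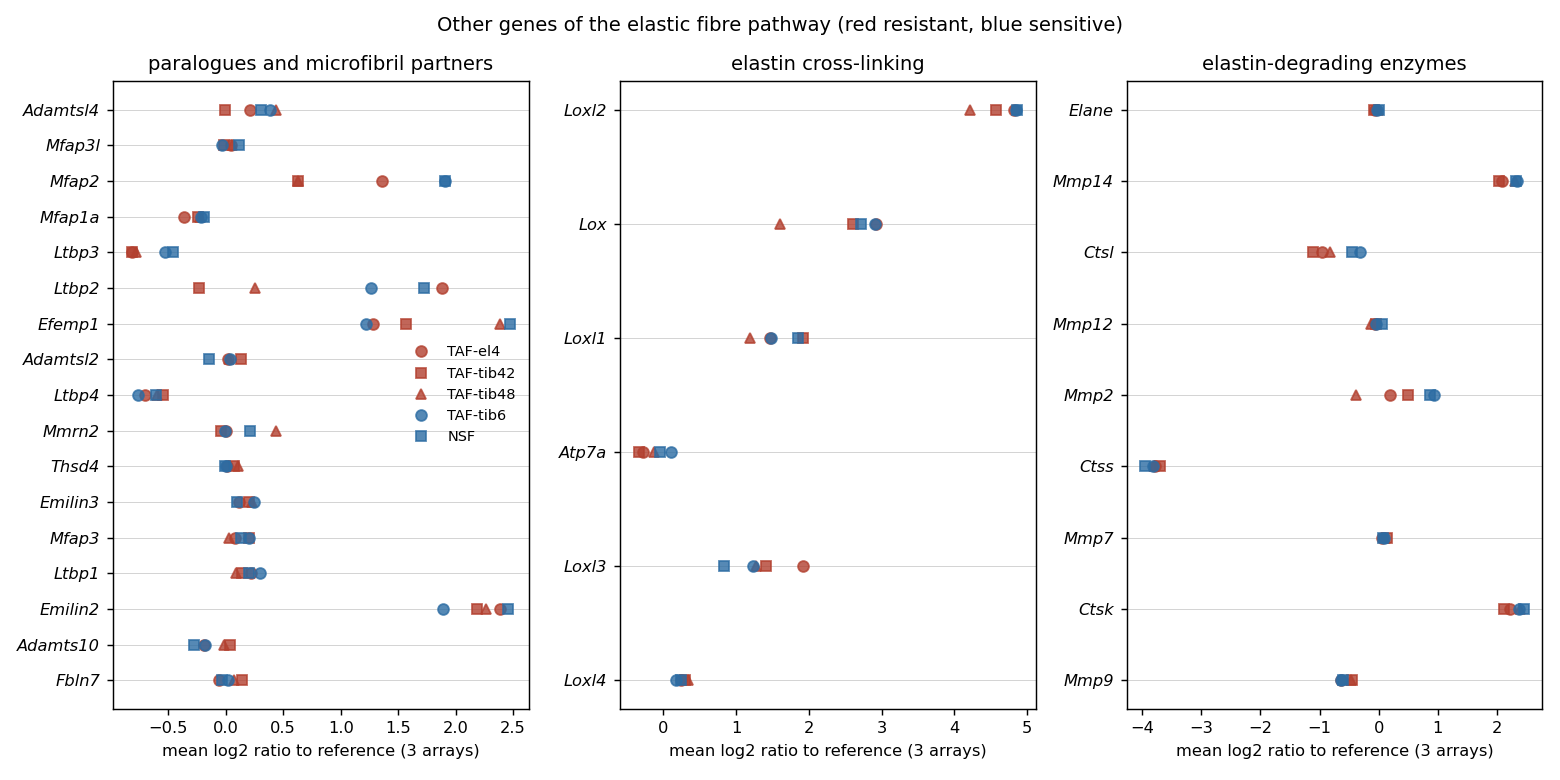
Mean log2 ratio to the reference of each source (3 arrays) for the other pathway genes in 3 lists, resistant sources in red and sensitive sources in blue. Mfap2, Mmp2 and Ctsl are lower in all 3 resistant sources, Ltbp2 is low in TAF-tib42 and TAF-tib48 only, and Lox is low in TAF-tib48.

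The genes whose levels ran most like those of the 3 most variable members were found over the 15 arrays among 14863 named genes, as a description of arrays that share a reference RNA and 5 sources. For Fbn2 they were Hgf (r = 0.976), Adh1 (r = 0.97) and Col8a2 (r = 0.968). Hgf, the growth factor of the MET receptor, averaged 1.56, 1.49 and 1.51 in TAF-el4, TAF-tib42 and TAF-tib48, against 2.73 in TAF-tib6 and 1.99 in NSF. For the brighter Fbln1 probe they included Nbl1 and Scap, both at r = 0.976 over the 14 arrays with a value. For Mfap5 they were Lpcat3 (r = 0.946), Fabp4 (r = 0.944) and Atad1 (r = 0.94).

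Markers of fibroblasts and of other cell types differed between sources. Against TAF-tib6, 2 of 9 fibroblast markers were called higher and 2 lower in each resistant source. Against NSF, 1 was higher and 3 lower in TAF-el4, 0 and 3 in TAF-tib42, and 2 and 4 in TAF-tib48. The shares over all probes are those given for the members. Pdgfra was lower in TAF-el4, TAF-tib42 and TAF-tib48, at -0.69, -0.45 and -1.07 against TAF-tib6 and -1.04, -0.79 and -1.42 against NSF. Fabp4, of adipocytes and also of capillary endothelium, averaged 2.86 in TAF-el4, 1.60 in TAF-tib42 and 0.45 in TAF-tib48, against 2.80 in TAF-tib6 and 2.25 in NSF. Of the 4 adipocyte markers measured, Adipoq, Plin1 and Cfd had source means between -0.16 and 0.17 at mean Cy5 intensities of 98.2 to 178. Sums of Cy5 over a list are of raw intensities, not normalised between arrays, so bright arrays and bright genes weigh most. The summed Cy5 intensity of the adipocyte list ran from 3018 to 4874 in TAF-el4, 1455 to 1623 in TAF-tib42, 885.1 to 1185 in TAF-tib48, 3326 to 3778 in TAF-tib6 and 2583 to 3676 in NSF. Emcn, Cdh5 and Tek of endothelium averaged 2.04, 0.74 and 0.57 in TAF-tib48, against at most 0.26, 0.26 and 0.40 in the other sources, and all were called higher there than in TAF-tib6 and in NSF. Pecam1, Tie1 and Kdr averaged -0.03, 0.10 and 0.18 in TAF-tib48. The 6 endothelial markers summed to 1723 to 2859 in TAF-tib48 and to 876.1 to 1322 elsewhere. Of smooth muscle, the contractile gene Cnn1 averaged 4.55 in TAF-el4, 2.46 in TAF-tib42 and 3.58 in TAF-tib48, against 3.70 in TAF-tib6 and 3.92 in NSF. Of 8 smooth muscle and pericyte markers, 3 were called higher in TAF-el4 than in TAF-tib42 (Cnn1, Myh11 and Tagln) and 1 lower, the pericyte gene Cspg4 (-0.65, adjusted p = 3.21e-07), and Acta2, Des, Smtn and Rgs5 were not called. The sum over the 8 markers ran from 129300 to 159400 in TAF-el4 and from 90040 to 103700 in TAF-tib42, and lay between 97870 and 140800 in the other sources. Against TAF-tib6, 5 of these 8 markers were called higher in TAF-el4 and 0 lower, beside 11.6% and 8.96% of all probes. In that comparison Mfap5 differed by 0.26, Efemp2 by 0.17, and the brighter and dimmer Fbln1 probes by 0.08 and 0.22. None of these was called (adjusted p = 0.0531, 0.153, 0.301 and 0.115 in limma). Whether adipocytes, endothelium or smooth muscle cells were present was not tested, nor was any part of theirs in the levels of Mfap5, Fbln1 and Efemp2.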

How the data were processed

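RNA of 5 fibroblast sources was measured on 15 Agilent 2-colour arrays, 3 per source, grouped by the labels. For each dye, the deposited scanner files give the intensity of a spot (mean) and of its surroundings (median), with quality flags. They also carry a log10 ratio, Cy5 over Cy3, that the scanner's software had normalised by LOWESS, per the file headers. That software was Agilent Feature Extraction 8.5.1.1, as headers and submitters' processing notes state. The authors' deposited value table gives log2 ratios, which matched the scanner's ratio on every array (slope 1, correlation 1) and so run in the same direction. Its column medians lay between 0.0337 and 0.0511.

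Here the intensities were corrected for background by normexp with an offset of 50 (limma 3.58.1, R 4.3.3) and normalised within arrays by loess. Control spots and spots with an outlier flag had weight 0 and were left out. Repeated spots of a probe were averaged. The tests covered 38522 of 41174 probes, those with Cy5 well above background on all 3 arrays of a source. One-way means per source in a single limma fit of 15 arrays gave the pair differences, and resistant sources were set against sensitive ones on 5 source means. Tests were two-sided, adjusted by Benjamini-Hochberg over all probes tested, and a probe was called at an adjusted p under 0.05. The steps were tested on simulated data.

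The members and gene lists were chosen with earlier results of these data known. Every member probe is described. Of each other list, up to 4 called genes with the largest differences in a comparison are named, and for the 3 members with the widest range of source means the 3 genes of highest Pearson r, of which 1 is not reported here. Gene names came from the files and, by accession, from a RefSeq table of GRCm38.p6, which also gave the promoters. Replicate numbers did not pair arrays: deviations of same-numbered arrays correlated at -0.188 to 0.16, above 0.1 in 2 of 30 pairs.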

Additional observations from a re-analysis of the deposited data

How the results depend on the processing

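Of the 67 called differences of member probes between sources, 31 kept their direction and their call under every alternative computed for them, among them all 7 of Fbn2. The number of member probes called moved by over 1.5 times in these cases. For TAF-el4 against NSF it was 5 with the scanner's ratios, 5 with the authors' table and 4 from Cy5 alone, beside 8. For TAF-tib6 against NSF it was 1 from Cy5 alone and 2 with the slide pack as a block, beside 6. TAF-tib42 against TAF-tib48 gave 1 from Cy5 alone, beside 3. TAF-el4 against TAF-tib6 gave 1 with the slide pack and 8 in a fit of these 2 sources alone, beside 5. With the slide pack, TAF-tib42 against TAF-tib6 gave 3 beside 9, and TAF-tib48 against NSF 3 beside 8. Resistant against sensitive sources gave 4 with the source as a random block, 3 with the replicate block added and 2 with the slide pack added (chosen after seeing the data), beside 0. The share of all probes called fell too with the slide pack, to 5.45% from 20.6% for TAF-el4 against TAF-tib6. It fell to 9.73% from 24.7% for TAF-tib42 against TAF-tib6, and to 6.42% from 26.5% for TAF-tib48 against NSF. For the other counts of pairs, here and with arrays left out, such shares are not given. A change among members there cannot be told from a general one. The cause of these moves was not tested.

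Leaving out single arrays or 1 replicate number gave 5 to 8 called for TAF-el4 against TAF-tib6 (8 without TAF-tib48 replicate 3), 6 to 10 for TAF-tib42 and 5 to 7 for TAF-tib48 against TAF-tib6, 5 to 8 for TAF-el4 (5 without replicate 2), 6 to 9 for TAF-tib42, 7 to 9 for TAF-tib48 and 3 to 6 for TAF-tib6 (3 without replicate 1) against NSF, 7 to 9 for TAF-el4 against TAF-tib42, 6 to 9 for TAF-el4 against TAF-tib48, 1 to 5 for TAF-tib42 against TAF-tib48 (1 without replicate 2, 5 without TAF-tib48 replicate 2), 9 to 11 over the 5 sources and 0 between resistant and sensitive sources. From Cy5 alone, 2 differences turned: Eln in TAF-tib42 against TAF-tib6 to -0.37 (adjusted p = 0.0418) from an uncalled 0.12, and Fbln2 in TAF-tib48 against NSF to 0.031 (adjusted p = 0.82) from -0.22. With the replicate number as a block the counts were those reported: 5, 9 and 6 for TAF-el4, TAF-tib42 and TAF-tib48 against TAF-tib6, 8, 8 and 8 against NSF, 6 for TAF-tib6 against NSF, 8, 6 and 3 among the resistant pairs and 10 over all sources, and the numbers share no known culture or day. Of 4387 values of single differences under alternatives, 4046 kept direction and side of the threshold, 133 lost and 57 gained a call, and 149 uncalled ones changed sign. A block of scan dates was not run, since all arrays were scanned on 1 day. Some calls held while their value moved by over 1.5 times: from Cy5 alone, the brighter Fbln1 probe in TAF-tib48 against NSF was -0.49, the dimmer in TAF-tib42 against TAF-tib6 -1.21, Fbln5 in TAF-tib42 against NSF -0.29 and in TAF-el4 against TAF-tib48 -0.62, Mfap5 in TAF-tib42 against TAF-tib6 -0.60 and Fbn1 in TAF-el4 against TAF-tib48 -0.70. Dim probes (Mfap4 and the dimmer Fbln5 probe) lay near background, which limits what they can show, and so does the number of arrays.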
